A study of Homo sapiens with 20 samples.

Results

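The submitters' peak lists held 3055 sites of the corepressor BCOR classed as enriched with dexamethasone, and 1723 of these dex-enriched peaks (56.4%) lay inside genes. A peak was counted as inside a gene when its centre was over 1000 bp from every transcription start site (TSS) of the count table and between the start and end of at least 1 transcript. The dex-enriched peaks so chosen are called members below, and the genes that held them hosts. The rule uses positions alone and no RNA value. Of the remaining dex-enriched peaks, 213 lay within 1000 bp of a TSS and 1119 lay between genes. All 3 peak lists together held 11909 peaks, 8587 of them listed as shared between the treatments and 267 as vehicle-enriched.

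All experiments used HEK293-GR, cells of a line derived from human embryonic kidney with constitutive expression of the glucocorticoid receptor (GR), kept in steroid-depleted medium for 48 h. For RNA, 4 groups of 4 biological replicates each were made: siBCOR with dexamethasone, siBCOR with vehicle, siNON with dexamethasone and siNON with vehicle. Here siBCOR is a pool of small interfering RNAs against BCOR and siNON a non-targeting pool, each given at 20 nM for 72 h. Dexamethasone, a synthetic glucocorticoid abbreviated dex, was given at 100 nM and vehicle was ethanol, for 6 h before RNA and for 1 h before chromatin immunoprecipitation (ChIP-seq) with an antibody against BCOR. ChIP-seq was done in cells with no transfection named, with 2 libraries for each treatment, and the deposited peaks carry no height, so binding strength could not be compared between peaks. Whether HEK293-GR is 1 clone is not given in the sources used here.

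GR is a transcription factor that moves to the nucleus when it binds a glucocorticoid and there occupies short palindromic response elements, most of them in enhancers away from gene starts and many of them within introns. BCOR was first described as a corepressor of the transcription factor BCL6 and is a subunit of PRC1.1, a variant Polycomb complex that is otherwise known for unmethylated CpG-rich promoters. In kidney-derived cells glucocorticoids are known to induce FKBP5, TSC22D3 and the epithelial sodium channel, among other genes.

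The RNA libraries held 18580288 to 28054822 reads in the transcripts used. BCOR, the gene targeted by siRNA, stood at 14.7 ± 0.706 CPM (counts relative to the TMM-scaled total of the library; mean ± SD, n = 4 here and for each group below) in siBCOR dex against 93.8 ± 15.9 CPM in siNON dex, and at 22.4 ± 0.795 CPM in siBCOR vehicle against 196 ± 29.4 CPM in siNON vehicle. Each library correlated with the others of its group at a mean r of 0.989 to 0.996, and siNON dex replicate 4 and siNON vehicle replicate 3 were the least like their groups. The HEK293 markers VIM, KRT8, KRT18, INA, NEFM, PAX2 and LHX1 were all detected, from 1.52 CPM for LHX1 to 602 CPM for VIM. Of the markers of other cell types COL1A1 reached 22 to 45.4 CPM and LYZ 0.491 to 1.26 CPM, while PTPRC, CD3E, DCN, COL1A2, PDGFRB, ALB, APOA1 and TTR stayed at or below 0.469 CPM in every library. In these bulk samples fewer cells of a kind and less RNA per cell cannot be told apart.

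Peaks inside genes made up a larger share of the dex-enriched list (56.4%) than of the shared list (2919 of 8587, 34%) or the vehicle-enriched list (85 of 267, 31.8%). Promoters held 6.97% of dex-enriched peaks, against 35.7% of shared and 48.7% of vehicle-enriched peaks. Peaks between genes made up 36.6% of the dex-enriched, 30.3% of the shared and 19.5% of the vehicle-enriched list. The dex-enriched list, with the smallest promoter share, thus had the largest share both inside and between genes. Peaks inside and between genes numbered 1723 and 1119 (dex-enriched), 2919 and 2606 (shared) and 85 and 52 (vehicle-enriched). These shares are descriptions of 1 deposited list each and were not tested, because peaks of 1 list are not replicates. At the edge of the rule, the 3 members nearest to a TSS had their centres 1007, 1011 and 1019 bp from it, and the 3 dex-enriched peaks just outside had theirs at 1000, 1000 and 998 bp. The files give no exon positions along the genome, so exonic and intronic peaks were not told apart.

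The members lay deep within long genes. Measured on the longest transcript of the host that held the centre, the median distance from the host's TSS was 60338 bp, with an interquartile range of 19472.5 to 152877.75 bp, against a median of 38777 bp for shared peaks inside genes. The host transcripts had a median span of 169455.5 bp per member, against 119606 bp per shared peak. As a share of that span the members sat at a median of 44.1%, against 47% for shared peaks. Going along the host in steps of 20% of its span, the steps held 23.3%, 22.2%, 21%, 17.5% and 16% of members, and 24.2%, 19.5%, 18.3%, 19.4% and 18.6% of shared peaks. Only 9.02% of members were within 5 kb of the host's TSS, against 14.7% of shared peaks, while 37.2% of members were over 100 kb from it, against 28.0% of shared peaks. The most distant member of all lay 1398505 bp from the start of the longest transcript of PDE4D, a phosphodiesterase that degrades cyclic AMP, which has other starts much closer to it (50081 bp).

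**Figure D1:**
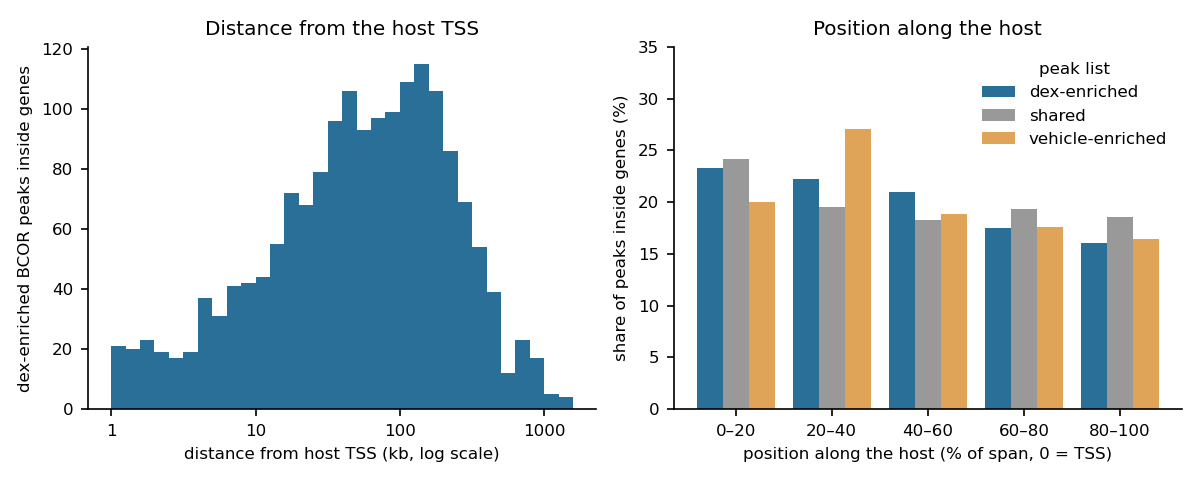
Left, number of dex-enriched BCOR peaks inside genes by distance from the host's TSS (kb, log axis); right, share of the peaks inside genes of each deposited list by position along the host, from its TSS (0%) to its end (100%). The members lie at a median of 60338 bp and are spread along the whole span, with 23.3% in the first step and 16% in the last.

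The 1723 members fell in 1314 named host genes: 1660 had 1 named host, 58 had 2 or more because genes overlap, and 5 lay only in transcripts without a gene name. Of the hosts 1017 held 1 member, 194 held 2, 62 held 3 and 23 held 4, and the hosts with 2 or more held 746 of the members. The receptor-type tyrosine phosphatase gene PTPRG held the most, 7, which lay 33646 to 439318 bp from its TSS in a gene of 733331 bp. AKAP13 (an anchoring protein of protein kinase A) held 6, as did DLEU1 (a long noncoding RNA), FOXN3 (a forkhead repressor), KCNMA1 (a calcium-activated potassium channel), PDE4D, PRKCE (protein kinase C epsilon) and the readthrough transcript TSNAX-DISC1. The last of these shares 5 of its members with DISC1, so both count much the same peaks. Neighbouring members of 1 host were a median of 38461.5 bp apart.

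For 1191 members (69.3%) the nearest TSS of any gene was one of the host's own, much as for shared peaks inside genes (67.7%). Of the 1314 hosts 505 (38.4%) also held a shared peak inside, which is 23.6% of the hosts of shared peaks. A shared peak at the host's own TSS was present for 297 hosts (22.6%), a dex-enriched peak there for 26 (1.98%) and a vehicle-enriched peak there for 15 (1.14%). The hosts comprised 1157 protein-coding genes and 151 noncoding RNA genes. BCOR itself held 2 members, at chrX:40028552-40028886 and chrX:40008359-40008693 (hg19, as for every peak here), 7864 and 28057 bp from a TSS of its own, whereas NR3C1, the gene of GR, held none.

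Enough reads for testing were found for 1145 of the 1314 hosts (87.1%), against 16432 of all 27896 gene symbols (58.9%), and 18 hosts had 0 counts in all libraries. Host genes that could be tested were long, with a median span of 127211 bp against 24838 bp for all genes tested. Hosts made up 26.2% of the 2645 tested genes over 100 kb long, 5.66% of the 6560 genes of 20 to 100 kb and 1.12% of the 7227 shorter ones. Hosts were spread over a wide range of levels with a lower upper end than that of all genes: in siNON vehicle, levels per exon length and depth (RPKM) were 0.189 at the 5th percentile of hosts, 5.36 at the median and 44.4 at the 95th percentile, against 0.198, 6.38 and 90.2 for all genes tested. The median host stood at 6.32 ± 0.125 RPKM in siBCOR dex, 5.69 ± 0.385 in siBCOR vehicle, 5.83 ± 0.102 in siNON dex and 5.38 ± 0.332 in siNON vehicle. The median gene of all those tested stood at 6.73 ± 0.112, 6.45 ± 0.257, 6.22 ± 0.223 and 6.34 ± 0.263 RPKM in the same 4 groups.

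The first comparison of RNA asked which hosts responded to dexamethasone in cells that keep BCOR. Of the 1145 hosts tested 340 rose (29.7%) and 137 fell (12%) with dex in siNON cells, where 10.7% of all 16432 genes tested rose and 8.64% fell (19.4% in either direction). A gene is said to rise or fall when its adjusted p was under 0.05 in edgeR's quasi-likelihood test, two-sided, after Benjamini-Hochberg adjustment across every gene in the test. Changes of at least 2-fold were upward in 104 hosts and downward in 17, which is 9.08% and 1.48% of hosts against 2.4% and 1.38% of all genes. The median log2 fold change of hosts was 0.08, against -0.0044 for all genes. The 4 dex libraries lay wholly above the 4 vehicle libraries for 322 hosts (28.1%, against 11.1% of all genes) and wholly below them for 117 (10.2%, against 8.75%). Because a gene that is silent in vehicle could enter the test only by rising, the count was repeated over genes with enough reads in the vehicle libraries alone: 319 of 1108 such hosts rose (28.8%), against 1651 of 15899 genes (10.4%).

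Hosts with no shared peak inside rose most often. Of 681 hosts that held dex-enriched but no shared peaks inside, 221 rose (32.5%) and 55 fell (8.08%), and of 464 that held both kinds 119 rose (25.6%) and 82 fell (17.7%). The 1300 tested genes that held a shared but no dex-enriched peak inside gave another balance, with 10.8% up and 15.5% down, and of 13956 genes with no peak of any list inside 9.16% rose and 7.69% fell. Of 48 hosts of vehicle-enriched peaks without a member, 3 rose and 12 fell.

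Hosts rose more often than genes without a member in each class of gene length. Hosts shorter than 20 kb rose in 48.1% of 81 cases, those of 20 to 100 kb in 35.6% of 371 and those over 100 kb in 24.4% of 693, while tested genes without a member rose in 9.07%, 9.65% and 8.97% of cases in the same classes. The shares that fell were 6.17%, 8.36% and 14.6% among hosts, and 8.44%, 7.53% and 11% among genes without a member. Hosts with 1 member rose in 28.5% of cases, those with 2 in 30.7% and those with 3 or more in 38.5%.

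**Figure D2:**
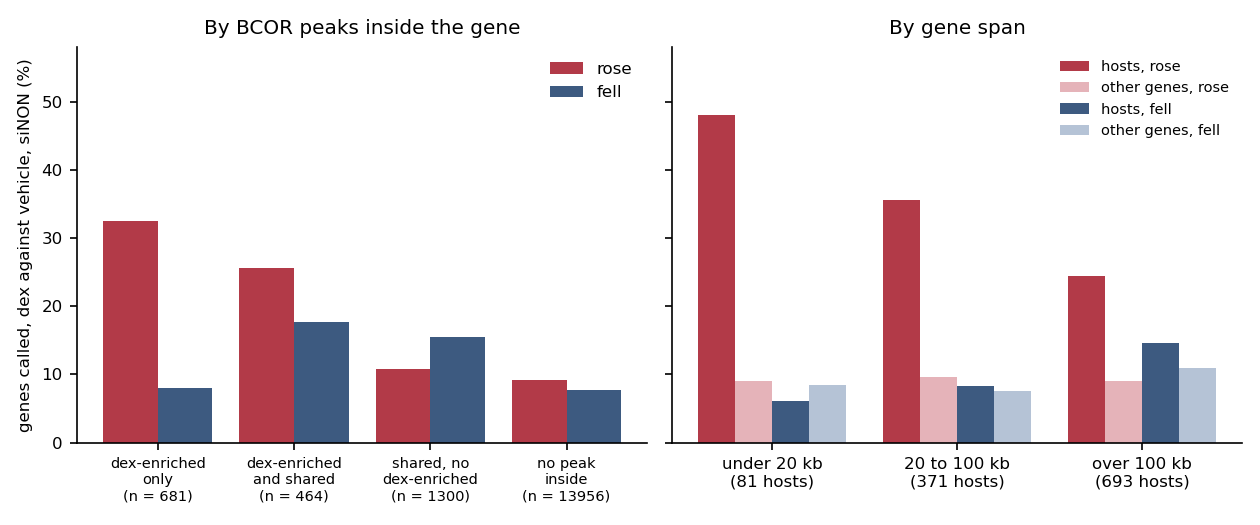
Share of tested genes that rose (red) or fell (blue) with dex in siNON cells, in percent, by the kinds of BCOR peak inside the gene (left) and by gene span for hosts and for genes without such a peak (right, pale bars). Hosts of dex-enriched peaks rose in 32.5% (no shared peak) and 25.6% (with a shared peak) of cases, against 10.8% of genes with shared peaks only.

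The share of hosts that rose was highest where a member lay near a start of the host and fell off with distance. This distance was taken to the nearest of all the host's starts, on either side, not to the start of its longest transcript. A member may thus lie upstream of the transcript whose reads were tested. That transcript held 1627 members, against 1718 members with a named host. With the nearest member 1 to 5 kb from a TSS of the host, 97 of 181 rose (53.6%), at 5 to 20 kb 98 of 266 (36.8%), at 20 to 100 kb 114 of 486 (23.5%) and beyond 100 kb 31 of 212 (14.6%). The shares that fell were 8.29%, 7.52%, 14.6% and 14.6%. Among hosts over 100 kb long alone, the shares that rose were 53.8% of 52, 37.2% of 113, 21.5% of 317 and 14.7% of 211, and those that fell 13.5%, 7.08%, 17.7% and 14.2%. Where another gene's TSS was nearer to every member of a host, 63 of 311 hosts rose (20.3%), against 277 of 834 hosts (33.2%) whose own TSS was the nearest to a member. Over all members with another gene's TSS nearer than the host's, not only those of these 311 hosts, the genes with that nearer TSS were also looked at. Those that held no member themselves rose in 28 of 189 cases (14.8%).

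**Figure D3:**
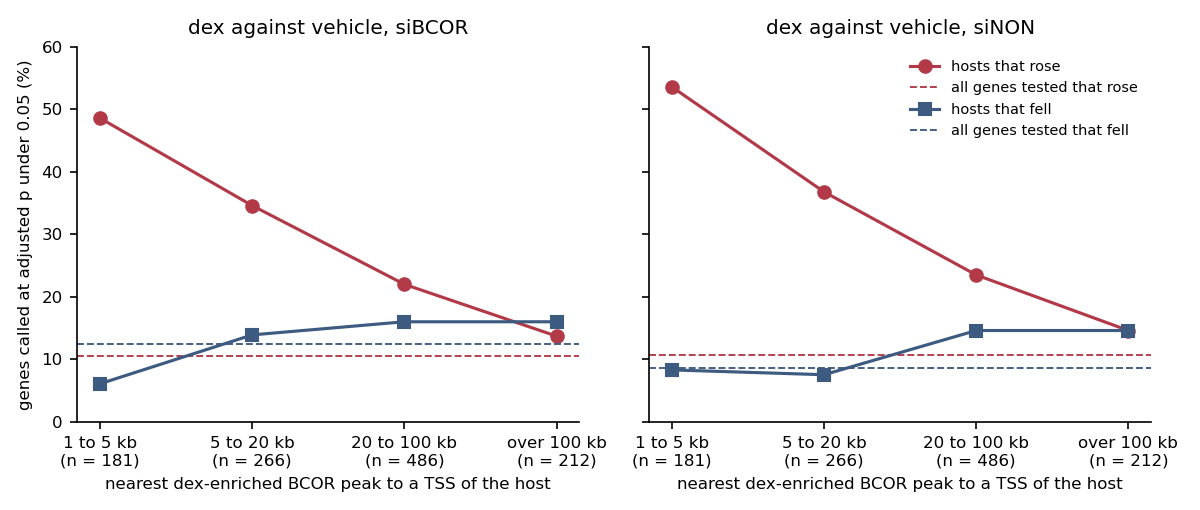
Share of host genes that rose (red circles) or fell (blue squares) with dex against vehicle, in percent, by the distance of the nearest dex-enriched BCOR peak inside the gene from a TSS of that gene, in siBCOR cells (left) and siNON cells (right), with dashed lines for all genes tested. In both kinds of cell the share that rose drops with distance, to 13.7% in siBCOR and 14.6% in siNON cells beyond 100 kb.

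Among the 10 hosts with the largest rises, SLC6A3, LOC100506585 and FGF18 had too few vehicle reads to enter the test without the dex libraries, so that they had to differ, and their values stand as a description. SLC6A3, the dopamine transporter gene, held 1 member at chr5:1416692-1417026, 28685 bp from its TSS. It had 25.5, 29, 24.9 and 26.2 CPM in the siNON dex libraries, against 0.0398, 0.0967, 0.127 and 0.0451 CPM in the siNON vehicle libraries, where 7 reads were counted in all. The noncoding RNA LOC100506585, with 1 member 7481 bp from its TSS, went the same way, with 1201 reads in the siNON dex libraries and 5 in the siNON vehicle libraries. The file headers name no strand setting for the counting, though each library name in them ends in flip. Whether reads of genes that overlap such a transcript were told apart from its own is thus not known. Counted among called hosts with a mean of at least 50 reads per library and no overlap of the groups, the rest of the 10 largest rises were PHACTR3, RP1L1, CNKSR3, LOC101928841, MYOM2, UBE2QL1 and SLC25A18.

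PHACTR3, a regulator of protein phosphatase 1 and actin, held 4 members, all in the last stretch of its span (71.7% to 92.2% along it). It stood at 52.6, 52, 49.4 and 65.3 CPM in siNON dex, against 1.63, 1.89, 2.37 and 2.08 CPM in siNON vehicle, a rise of 4.78 ± 0.127 (SE) on the log2 scale (adjusted p = 1.07e-14). FGF18, a fibroblast growth factor, had 6.72, 6.66, 6.86 and 6.56 CPM in siNON dex, against 0.438, 0.339, 0.169 and 0.271 CPM in siNON vehicle, and its member lay in mid-gene, 19862 bp from the TSS. UBE2QL1, which encodes a protein like the ubiquitin-conjugating enzymes, held its member 1960 bp from the TSS. It rose to 36.4 ± 3.14 CPM in siNON dex, against 5.96 ± 1.15 CPM in siNON vehicle (2.61 ± 0.131, adjusted p = 6.46e-11). MYOM2, a protein of the sarcomere's M band, was the most abundant of these 10, at 707 ± 94.6 CPM in siNON dex against 107 ± 14.4 CPM in siNON vehicle. The dex and vehicle libraries did not overlap for any of the 10 genes, which the rule for naming them required.

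CNKSR3, a scaffold protein of the aldosterone response in kidney epithelium, showed a large rise at a high level. Its single member, chr6:154802765-154803099, lay 28862 bp from the TSS. CNKSR3 stood at 225, 234, 214 and 197 CPM in siNON dex, against 32.7, 30.9, 26.1 and 28.1 CPM in siNON vehicle (2.88 ± 0.0747, adjusted p = 8.01e-15). All dex libraries were thus several times higher than any vehicle library.

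Of 49 known glucocorticoid-induced genes 47 could be tested and 9 were hosts, of which 8 rose, 0 fell and 1 did not pass the test with dex in siNON cells. The other 38 rose in 26 cases and fell in 2, with a median log2 fold change of 1.26 against 1.29 for the hosts, so the hosts of this list did not stand apart from it in size. Genes of this list were short, with a median span of 8630 bp, and 19.1% of those tested were hosts. FKBP5, a cochaperone that lowers GR's affinity for hormone, held 5 members. These lay 1027, 13073, 25552, 86788 and 98119 bp from its nearest TSS, the closest at chr6:35655499-35655833. FKBP5 stood at 516, 520, 502 and 534 CPM in siNON dex, against 104, 102, 105 and 102 CPM in siNON vehicle, which is 5.02-fold higher (2.33 ± 0.056, adjusted p = 3.59e-15).

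ACSL1, which activates long-chain fatty acids, held 1 member, at chr4:185734533-185734867, 12569 bp from the start of its longest transcript. Its nearest TSS, 1286 bp away, is the start of the counted transcript, and the member lies upstream of that start, outside the counted transcript. ACSL1 stood at 304 ± 9.76 CPM in siNON dex against 63.5 ± 3.19 CPM in siNON vehicle (2.26 ± 0.0619, adjusted p = 1.52e-14). SCNN1A, the alpha subunit of the epithelial sodium channel, rose at a low level, to 2.86 ± 0.488 CPM in siNON dex against 0.755 ± 0.137 CPM in siNON vehicle (1.92 ± 0.248, adjusted p = 1.51e-05). TSC22D3, the gene of the glucocorticoid-induced leucine zipper, had 1160, 1125, 1224 and 993 CPM in siNON dex, against 361, 459, 314 and 383 CPM in siNON vehicle (1.57 ± 0.117, adjusted p = 1.36e-08). ZBTB16, a BTB zinc-finger repressor whose 4 members all lay over 90 kb from its starts, rose by 1.29 ± 0.0839 (adjusted p = 2.24e-09). Smaller rises were found in SESN1, a sestrin that dampens mTOR signalling (0.73), PIK3R1, the regulatory subunit of PI3-kinase (0.63), and NEDD9, an adhesion scaffold (0.57). IRS2, an adaptor of the insulin receptor, had 36.7 ± 5.45 CPM in siNON dex and 31.4 ± 5.91 CPM in siNON vehicle and was not called (0.23 ± 0.159, adjusted p = 0.366). In PIK3R1 the groups overlapped, because siNON vehicle replicate 3 stood at 41.8 CPM, above siNON dex replicate 3 at 39.3 CPM.

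The promoters of 3 of these risers hold a match to ACANNNTGT, the core of the GR response element, which reads the same on both strands. They are shown because they are the 3 that held the core among 10 named risers with a promoter in the table, and 7 (FGF18, UBE2QL1, SLC25A18, FKBP5, ACSL1, SESN1 and PIK3R1) held none in this window. The nearest member was 28862 bp from the nearest TSS of CNKSR3, 19715 bp from that of TSC22D3 and 55821 bp from that of NEDD9. From the start of the host's longest transcript it was 28862, 39212 and 93845 bp. The start of a promoter used here need not be the TSS nearest to the member or that of the counted transcript. The sequences are those of RefSeq on GRCh38.p14, 5′ to 3′ on the gene's strand, from 250 bases before to 50 bases after 1 start of each gene, with the match in capitals. They cover chr6:154510636-154510935, chrX:107775939-107776238 and chr6:11382299-11382598 of that build, in the order below and each on the minus strand.
CNKSR3: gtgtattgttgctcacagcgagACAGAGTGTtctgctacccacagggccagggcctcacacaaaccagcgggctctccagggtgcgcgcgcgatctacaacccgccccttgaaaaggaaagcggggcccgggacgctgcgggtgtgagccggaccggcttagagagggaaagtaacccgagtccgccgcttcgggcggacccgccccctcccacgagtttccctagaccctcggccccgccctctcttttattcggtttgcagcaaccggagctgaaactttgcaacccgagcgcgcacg
TSC22D3: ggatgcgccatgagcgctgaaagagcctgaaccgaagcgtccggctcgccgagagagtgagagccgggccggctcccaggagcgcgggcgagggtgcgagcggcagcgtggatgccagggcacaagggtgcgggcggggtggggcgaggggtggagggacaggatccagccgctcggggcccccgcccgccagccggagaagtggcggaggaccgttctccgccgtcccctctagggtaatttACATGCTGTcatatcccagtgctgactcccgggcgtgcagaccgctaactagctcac
NEDD9: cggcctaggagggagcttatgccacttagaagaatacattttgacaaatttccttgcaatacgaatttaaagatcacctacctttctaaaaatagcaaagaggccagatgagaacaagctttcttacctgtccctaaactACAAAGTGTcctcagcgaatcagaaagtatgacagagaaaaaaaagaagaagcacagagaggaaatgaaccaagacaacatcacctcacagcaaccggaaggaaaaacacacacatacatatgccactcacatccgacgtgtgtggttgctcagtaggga
The match begins 228, 7 and 110 bases before the start in these genes. The core was in 32 of 888 tested hosts with a promoter given (3.6%), in 13 of 261 hosts that rose (4.98%), in 334 of 12305 tested genes (2.71%) and in 1488 of all 27305 promoters (5.45%). The AP-1 motif TGANTCA was in 5.52% of host promoters and 4.72% of those of tested genes. A match describes letters and is no binding site, and the members' own sequences were not analysed here.

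**Figure D4:**
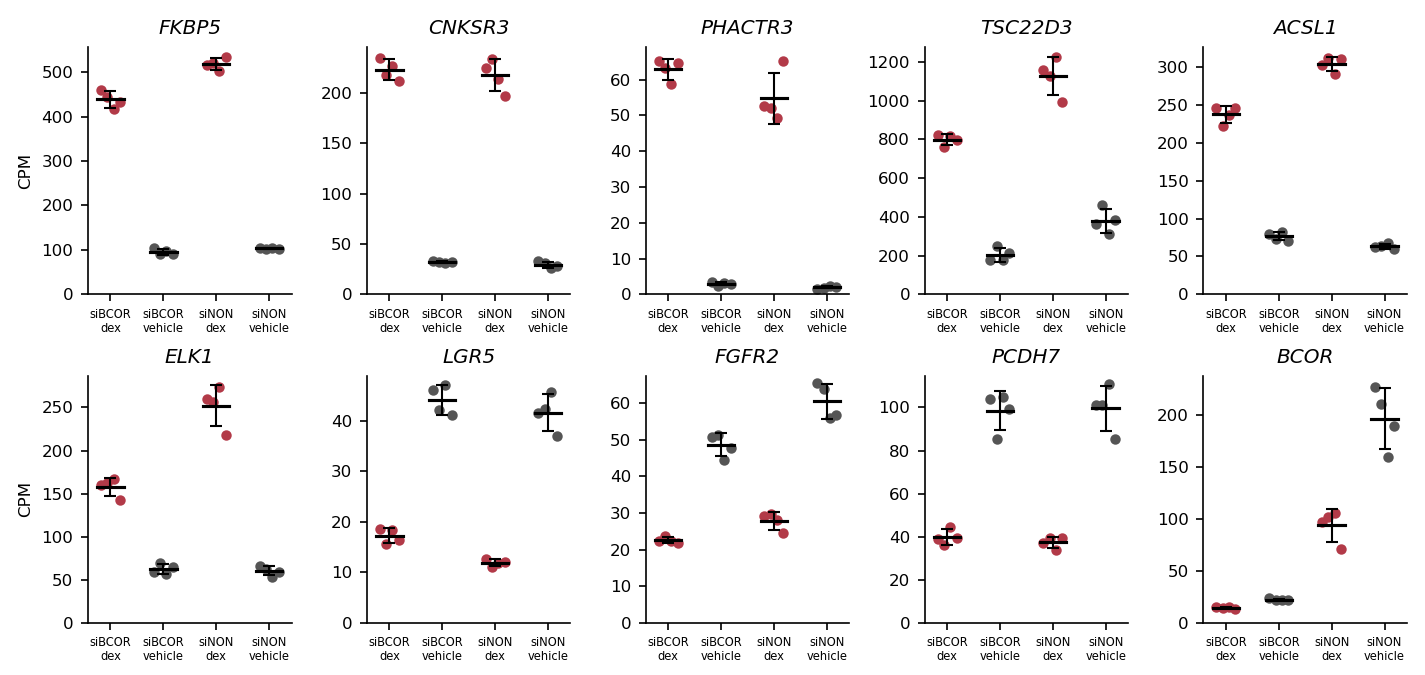
CPM of 10 host genes in each of the 16 RNA libraries (points; red, dex; grey, vehicle) with the mean and SD of each group (lines and bars, n = 4), in siBCOR and siNON cells. FKBP5, CNKSR3, PHACTR3, TSC22D3, ACSL1 and ELK1 were higher in dex than in vehicle, LGR5, FGFR2 and PCDH7 lower, and BCOR was lowest in siBCOR cells.

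By the same rule the hosts that fell most with dex in siNON cells were SEMA3C, LGR5, CREB5, PCDH9, EBF2, PCDH7, DACH1, FRMPD4, FGFR2 and ZNF608, and in all 10 the nearest member was over 30 kb from a TSS. LGR5, a receptor for R-spondins that strengthens Wnt signalling, stood at 12.7, 11.1, 11.8 and 12.1 CPM in siNON dex, against 41.6, 42.3, 45.8 and 37 CPM in siNON vehicle (-1.80 ± 0.0847, adjusted p = 2.64e-11). Its member lay 35807 bp from the TSS, at chr12:71869191-71869525. SEMA3C, a secreted guidance cue, had 5.15 ± 1.4 CPM in siNON dex against 17.9 ± 3.45 CPM in siNON vehicle (-1.81 ± 0.173, adjusted p = 3.83e-07). The protocadherin PCDH7 had 37.2, 39.2, 34 and 39.2 CPM in siNON dex, against 101, 101, 111 and 85.5 CPM in siNON vehicle (-1.41 ± 0.0905, adjusted p = 1.91e-09).

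Transcription factors and a growth factor receptor were also among these hosts. CREB5, a factor that binds cyclic AMP response elements, fell to 9.19 ± 0.782 CPM in siNON dex, against 27.1 ± 4.6 CPM in siNON vehicle. EBF2, of the early B-cell factor family, fell to 5.51 ± 0.55 CPM in siNON dex, against 15.3 ± 0.449 CPM in siNON vehicle, and DACH1, a nuclear corepressor of the eye-specification network, to 13.1 ± 1.65 CPM against 33.4 ± 2.99 CPM. FGFR2, a fibroblast growth factor receptor, stood at 27.9 ± 2.38 CPM in siNON dex against 60.5 ± 4.85 CPM in siNON vehicle (-1.12 ± 0.0773, adjusted p = 5.43e-09). BCOR was itself among the hosts that fell: 96.8, 102, 106 and 70.6 CPM in siNON dex, against 227, 210, 159 and 189 CPM in siNON vehicle (-1.06 ± 0.113, adjusted p = 1.45e-06).

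Among the other gene lists the hosts were mixed. Of 48 tested genes of adhesion and migration 20 were hosts (41.7%), in a list whose median span was 132965 bp. Of these hosts 4 rose, 6 fell and 10 did not pass the test with dex in siNON cells, against 5, 9 and 14 of the 28 that were no hosts. Paxillin (PXN), with a member 2989 bp from a TSS, rose by 1.03 ± 0.0942 (adjusted p = 2.17e-07) and vinculin (VCL) by 0.64 ± 0.066 (adjusted p = 8.97e-07), both of them components of focal adhesions. ROBO1, a guidance receptor, fell by 0.63 on the log2 scale (adjusted p = 1.81e-05), as did SEMA3C, PCDH7 and PCDH9.

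Of 37 tested Polycomb-type developmental genes 9 were hosts, of which 0 rose and 3 fell (EYA1, FOXP1 and TSHZ2), while 24 of the 28 that were no hosts fell. TSHZ2 lost its call without siNON dex replicate 2 or 3 or siNON vehicle replicate 2 or 4 (adjusted p = 0.06 to 0.102), and EYA4, not called here (adjusted p = 0.0625), was called downward in 7 settings, among them DESeq2 size factors (adjusted p = 0.0361), upper-quartile scaling (adjusted p = 0.024) and without siNON dex replicate 4 (adjusted p = 0.0173). The median log2 fold change was -0.26 for these hosts and -1.09 for the others of the list. FOXP1, a forkhead repressor with 5 members, stood at 27.6 ± 2.12 CPM in siNON dex against 43.1 ± 4.64 CPM in siNON vehicle (-0.64 ± 0.0954, adjusted p = 7.28e-05). Of 11 PRC1.1 genes 3 were hosts, BCOR, the deubiquitinase USP7 and the RYBP relative YAF2, and BCOR alone was called. Of 25 genes of GR and its coregulators 4 were hosts (BCL6, NCOA2, NRIP1 and SMARCA4). BCL6, the repressor that recruits BCOR, rose to 26.3 ± 3.09 CPM in siNON dex, against 10.7 ± 1.11 CPM in siNON vehicle (1.30 ± 0.0928, adjusted p = 8.32e-09), with its member 3241 bp from a TSS. Of 33 growth control genes 5 were hosts, of which FGFR2 and TGFBR3 fell, and 12 of the 28 that were no hosts fell too. TGFBR3 fell by 0.38 (adjusted p = 0.039) and lost its call without any 1 of 7 libraries (adjusted p = 0.0502 to 0.108): siBCOR dex replicate 1, siNON dex replicates 1, 2 and 3, and siNON vehicle replicates 1, 2 and 3. None of 27 immediate early genes, which have a median span of 5035 bp, held a member.

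The 10 hosts with the most members held genes that rose, fell and were not called. Of these, PRKCE rose to 34.5 ± 0.59 CPM in siNON dex, against 16.8 ± 1.97 CPM in siNON vehicle (1.03 ± 0.0855, adjusted p = 5.65e-08), and DISC1, TSNAX-DISC1, FOXN3 and KCNMA1 rose by 1.25, 0.61, 0.24 and 0.32. FOXN3 lost its call with no filter and without siNON dex replicate 2 or 3 or siNON vehicle replicate 1 or 4 (adjusted p = 0.0657 to 0.0904). KCNMA1 lost it in 10 settings (adjusted p = 0.0511 to 0.131): the replicate block, upper-quartile scaling, no filter, the longest transcript, and without siNON dex replicate 2 or 3 or any 1 siNON vehicle library. PDE4D fell by 0.73 (adjusted p = 0.0138), and its siNON libraries were uneven, with replicate 4 at 15.6 CPM against 9.84 to 11.2 CPM in the rest of siNON dex and replicate 3 at 28.4 CPM against 15 to 17.8 CPM in the rest of siNON vehicle. PTPRG, with its 7 members, had 104 ± 4.45 CPM in siNON dex and 109 ± 14.3 CPM in siNON vehicle, a difference within the spread of replicates (-0.07 ± 0.101, adjusted p = 0.674). AKAP13, DLEU1 and CLYBL were not called either, but AKAP13 was called upward with the replicate block (adjusted p = 0.0348) and without siNON dex replicate 4 (adjusted p = 0.0204). DLEU1 was called downward by DESeq2's Wald test (adjusted p = 0.0316), with upper-quartile scaling (adjusted p = 0.0393), with no filter (adjusted p = 0.0472) and without siNON dex replicate 4 (adjusted p = 0.0175).

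The second comparison put the same question to cells depleted of BCOR. With dex in siBCOR cells 316 hosts rose (27.6%) and 160 fell (14%), where 10.5% of all genes tested rose and 12.5% fell (23.1% in either direction). The median log2 fold change of hosts was 0.08, against 0.0035 for all genes. The 4 dex libraries lay wholly above the 4 vehicle libraries for 357 hosts (31.2%, against 15.3% of all genes) and wholly below for 180 (15.7%, against 15.4%). By distance of the nearest member the shares that rose were 48.6%, 34.6%, 22% and 13.7%. Both lists of risers had 247 hosts in common, which is 78.2% of those of siBCOR and 72.6% of those of siNON cells, and 97 hosts fell in both (60.6% and 70.8%). No host called in both moved in opposite directions. The same overlap was not computed over all genes tested, so it does not set hosts apart from other genes that respond to dex.

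FKBP5 had 460, 444, 417 and 432 CPM in siBCOR dex, against 104, 90.3, 97.5 and 90.1 CPM in siBCOR vehicle (2.20 ± 0.0558, adjusted p = 6.3e-15). CNKSR3 had 223 ± 10.3 CPM in siBCOR dex against 32.1 ± 0.615 CPM in siBCOR vehicle (2.79 ± 0.0744, adjusted p = 1.1e-14), and PHACTR3 62.9 ± 2.96 CPM against 3 ± 0.427 CPM (4.39 ± 0.122, adjusted p = 1.93e-14). LGR5 fell there too, to 17.3 ± 1.44 CPM in siBCOR dex against 44.2 ± 2.96 CPM in siBCOR vehicle (-1.35 ± 0.0823, adjusted p = 1.14e-09). These 4 genes thus moved in the same direction as in siNON cells. Of the 9 glucocorticoid-induced hosts 8 rose in siBCOR cells as well, with a median log2 fold change of 1.20.

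**Figure D5:**
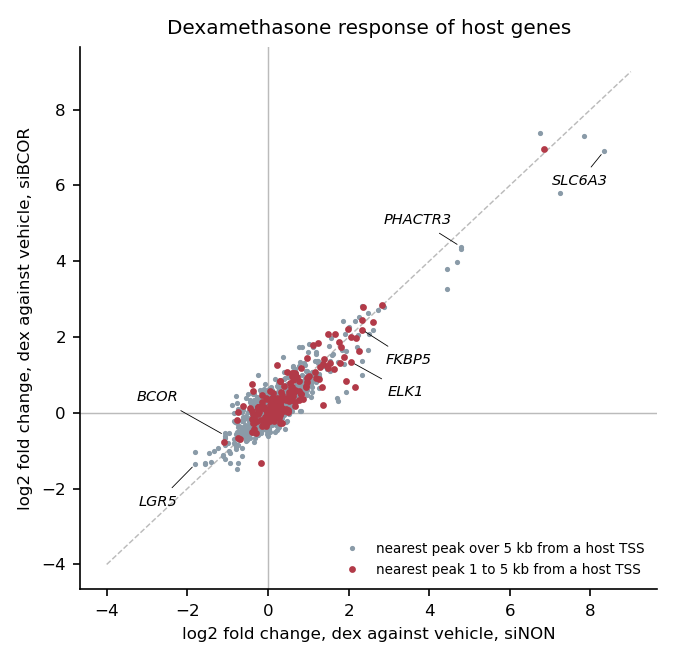
Log2 fold change with dex against vehicle of 1145 host genes in siBCOR cells (vertical axis) against that in siNON cells (horizontal axis), 1 point per gene, red where the nearest dex-enriched BCOR peak lay 1 to 5 kb from a TSS of the gene, with the line of equal response dashed. FKBP5 lies near the line (2.20 in siBCOR and 2.33 in siNON cells), LGR5 above it (-1.35 and -1.80) and ELK1 below it (1.34 and 2.06).

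Depletion of BCOR in vehicle called 17.9% of hosts, close to the background. Of 1145, 138 rose (12.1%) and 67 fell (5.85%) in siBCOR vehicle against siNON vehicle, where 8.87% of all genes rose and 8.23% fell (17.1% in either direction). By span (under 20 kb, 20 to 100 kb, over 100 kb) 9.88%, 11.9% and 12.4% of hosts rose, against 7.46%, 9.5% and 10.1% of genes without a member. The shares that fell were 7.41%, 5.93% and 5.63% of hosts, against 11.3%, 6.27% and 4.56%. Among called hosts with a mean of at least 50 reads per library and no overlap of the groups, PHACTR3, MAP2, KCNIP3, DISC1 and CDC14A rose most, all by under 2-fold. MAP2, a microtubule-associated protein of neurons, had 7.65, 6.46, 10.2 and 7.28 CPM in siBCOR vehicle, against 3.26, 4.74, 4.7 and 3.88 CPM in siNON vehicle (0.93 ± 0.149, adjusted p = 0.000556). After BCOR, the largest falls by the same rule were in GRIK3, PLXNA4, CRIM1 and GLIS3. CRIM1, a transmembrane protein that binds bone morphogenetic proteins, had 27, 22.8, 25 and 22.5 CPM in siBCOR vehicle, against 57.5, 56.7, 57.5 and 52.3 CPM in siNON vehicle (-1.20 ± 0.0881, adjusted p = 3.03e-07), and held a member 1358 bp from its TSS. GRIK3, a kainate receptor subunit, was at 1.55 ± 0.337 CPM in siBCOR vehicle against 5.79 ± 1.46 CPM in siNON vehicle (-1.88 ± 0.183, adjusted p = 5.62e-06). Single libraries moved these counts by about 1.5 times or more: the hosts that rose numbered 75 without siBCOR vehicle replicate 1, 92 without siBCOR vehicle replicate 3, 91 without siNON vehicle replicate 1 and 82 without siNON vehicle replicate 4, and those that fell numbered 105 without siNON vehicle replicate 3. In the same order these risers were 6.53%, 8.02%, 7.93% and 7.15% of hosts, against 5.38%, 6.41%, 6% and 6.02% of all genes. The 105 that fell were 9.15% of hosts, against 12.2% of all genes.

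In dex the comparison of siBCOR with siNON cells called more hosts, 286 upward (25%) and 222 downward (19.4%), as it did of all genes, of which 20.7% rose and 18.8% fell (39.5% in either direction). These shares of hosts lie near the background of all genes. By span (under 20 kb, 20 to 100 kb, over 100 kb) hosts rose in 22.2%, 25.1% and 25.3% of cases. Genes without a member rose in 13.1%, 26.1% and 28.9%, so the longer hosts rose no more often than other genes of their length. Hosts fell in 24.7%, 22.9% and 16.9% of cases, against 21.8%, 16.9% and 13.4% of genes without a member. Under upper-quartile scaling the balance turned, with 250 hosts upward and 264 downward, and without siNON dex replicate 3 the upward count was 187. These counts stand without the share of all genes in the same settings and are no result about hosts. The hosts with their nearest member 1 to 5 kb from a TSS were called downward in 27.6% and upward in 22.1% of 181 cases, and those beyond 100 kb in 15.6% and 25.5% of 212. This comparison shares its siNON dex libraries with the first one, so the risers of that one had high values in the libraries set against siBCOR here. PLXNA4, a semaphorin receptor, and CRIM1 fell in dex as they did in vehicle, at 2.11 ± 0.347 CPM in siBCOR dex against 5.21 ± 1.07 CPM in siNON dex and at 18 ± 2.45 CPM against 44.2 ± 1.29 CPM. SLC6A3 reached only 11.5, 10.5, 13.1 and 11 CPM in siBCOR dex, against 25.5, 29, 24.9 and 26.2 CPM in siNON dex (-1.20 ± 0.112, adjusted p = 1.72e-06), and PCBP3, an RNA-binding protein, was 1.40 ± 0.321 CPM against 3.35 ± 0.44 CPM.

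By the same rule, the largest rises in dex were in NEK10, CDC14A, PIK3CA, LINC01588 and ITGA2. CDC14A, a phosphatase of mitotic exit, had 38.4, 35.2, 35.2 and 36.8 CPM in siBCOR dex, against 17.7, 17.6, 16.1 and 18.3 CPM in siNON dex (1.06 ± 0.0974, adjusted p = 1.38e-06). PIK3CA, the catalytic subunit of PI3-kinase, had 34.7, 30.9, 36.3 and 36.2 CPM in siBCOR dex, against 15.4, 16.6, 14 and 25.4 CPM in siNON dex (0.96 ± 0.202, adjusted p = 0.00217). Its siNON libraries were uneven, the highest of them being replicate 4. ITGA2, the integrin alpha 2 subunit, stood at 37.6 ± 2.95 CPM in siBCOR dex against 20.1 ± 3.73 CPM in siNON dex (0.91 ± 0.16, adjusted p = 0.000601). LINC01588, called through its most-read transcript (0.94, adjusted p = 8.56e-05), gave -0.05 (adjusted p = 0.898) when its longest transcript stood for the gene.

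Whether depletion changed the hormone response itself was tested by the interaction, the log2 response in siBCOR minus that in siNON cells. In edgeR 0 of 1145 hosts were called with a larger response and 3 (0.262%) with a smaller one in siBCOR cells, where 0.0183% and 0.0791% of all genes were called (0.0974% in either direction). An unadjusted p under 0.05 was found for 271 of 1145 hosts and for 3163 of 16432 genes. DESeq2's Wald test called 5 hosts upward (0.437%, against 0.237% of all genes) and 9 downward (0.786%, against 0.347%). ACSL1 rose by 1.63 in siBCOR cells and by 2.26 in siNON cells, a difference of -0.63 ± 0.084 (adjusted p = 0.0081). Its CPM were 245, 222, 236 and 246 in siBCOR dex against 79.9, 73.4, 82.3 and 70.7 in siBCOR vehicle, and 302, 312, 291 and 310 in siNON dex against 62.3, 63.6, 67.9 and 60.3 in siNON vehicle.

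ELK1, an ETS factor that acts with serum response factor, held its member 1311 bp from a TSS (chrX:47508526-47508860) and had an interaction of -0.72 ± 0.119 (adjusted p = 0.0351). It stood at 158 ± 10.2 CPM in siBCOR dex against 62.4 ± 5.41 CPM in siBCOR vehicle, and at 252 ± 24 CPM in siNON dex against 60.3 ± 5.35 CPM in siNON vehicle. RTL9, a gene derived from a retrotransposon and expressed near 1 CPM, had an interaction of -1.43 ± 0.253 (adjusted p = 0.0367). It stood at 1.03 ± 0.0979 CPM in siBCOR dex against 0.838 ± 0.0737 CPM in siBCOR vehicle. In siNON cells it stood at 1.67 ± 0.249 CPM in dex against 0.507 ± 0.127 CPM in vehicle. RTL9 was not called with dex in siBCOR cells (adjusted p = 0.305), and it was higher in siBCOR vehicle than in siNON vehicle (adjusted p = 0.0358). Over 23 alternatives the adjusted p of ACSL1 ran from 2.88e-10 to 0.0406 and that of ELK1 from 0.000543 to 0.132, and over 22 that of RTL9 ran from 0.0146 to 0.155; ELK1 lost the call in 16 of them and RTL9 in 18. A single library decided how many hosts were called: without siNON dex replicate 4, 99 hosts had a larger response (8.63%, against 8.7% of all genes) and 121 a smaller one (10.5%, against 6.62%) in siBCOR cells. Without any 1 of the other libraries, 0 hosts were called upward and 1 or 2 downward.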

How the data were processed

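The deposited files were 3 peak lists (dex-enriched, shared and vehicle-enriched) and 1 table of RNA-seq counts. Per the submitters' processing notes, FastQC, Trimmomatic, Bowtie 0.12.9, TopHat2, HOMER 4.10.3, bedtools and hg19 were used; how peaks were classed between treatments is not given in the sources used here, and the peaks' score column is 0 throughout. Per the file headers, the deposited counts are raw reads over the exons of each transcript, with no adjustment for depth. The headers name no strand setting for the counting, though each library name in them ends in flip.

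The most-read transcript stood for each gene symbol, and transcripts without a symbol (0.0664% of counts) stayed out. Counts were scaled by TMM, filtered with filterByExpr and fitted over 16 libraries with 1 mean for each of 4 groups in edgeR 4.0.16 (R 4.3.3, limma 3.58.1) by its quasi-likelihood F test, with Benjamini-Hochberg adjustment over all genes and a threshold of 0.05. A log2 fold change stands with its standard error (SE), and p-values measure the spread between the labelled biological replicates. The series text names 3 RNA replicates, while 4 are labelled in each group and all were used. On simulated counts for the comparison of dex with vehicle in siNON cells (16285 genes), 88.9% of genes changed by log2 1 and 100% of those changed by log2 2 were called, with 0.075% of unchanged genes. The simulated libraries shared no deviations, and only 99 and 100 genes were changed, against 3180 genes called in the data. These shares need not hold in the data.

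Peak positions were compared with transcript starts and ends in Python 3.11.15 (pandas 2.3.3, numpy 2.4.6; figures with matplotlib 3.10.9). Named hosts are the 10 largest rises and falls with dex in siNON cells and the 5 largest after depletion in each treatment (called, mean of at least 50 counts in the 8 libraries, no overlap of groups), the called interactions, the 10 hosts with the most peaks and up to 6 hosts of each of 8 gene lists. Members, lists and rules were chosen with earlier results of these data known. Alternatives covered scaling, DESeq2 1.42.0, filters, transcripts, thresholds, the distance rule, the replicate number and each library left out.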

Additional observations from a re-analysis of the deposited data

Results flagged for a closer look

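In 3 hosts the response to dex differed between siBCOR and siNON cells by the interaction test of edgeR: ACSL1 (-0.63 on the log2 scale), ELK1 (-0.72) and RTL9 (-1.43). ACSL1 and ELK1 rose in both kinds of cell, with a smaller rise in siBCOR cells. RTL9 rose in siNON cells (1.74) and was not called with dex in siBCOR cells (0.31, adjusted p = 0.305 in the edgeR test).

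Of 296 groups of 4 libraries looked at over 74 named genes, 18 held 1 library whose gap to the others relative to the group's range exceeded Dixon's critical value, where chance gives about 1 in 20 groups. In siNON dex, replicate 4 was the one set apart in 7 of these. It was high for ITGA2 (25.7 CPM, the others 18 to 18.7), SESN1 (90.1) and the GR coactivator NCOA2 (47.9, the others 34 to 35.4), and low for AKAP13 (130), PXN (114), the insulin receptor INSR (43.9) and its relative IGF1R (111, the others 158 to 161). In siNON vehicle, replicate 3 was high for PCDH9 (46.9) and PIK3CA (23.9, the others 12.6 to 13.2) and low for SCNN1A (0.55).

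The other such values were spread over libraries. In siBCOR dex, replicate 4 was low for DACH1 (15) and TGFBR3 (28) and high for DLEU1 (22.7), and replicate 2 was low for PIK3R1 (72.4). In siBCOR vehicle, replicate 2 was low for NR3C1 (1053, the others 1121 to 1130) and replicate 1 high for FRMPD4 (29.4). In siNON, dex replicate 2 was low for GRIK3 (3.11) and vehicle replicate 4 low for CRIM1 (52.3).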

How the results depend on the processing

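The members numbered 1784, 1600 and 1718 with 500 bp, 2500 bp and the whole peak inside a transcript. In siNON cells the hosts called with dex stayed within 1.5 times under every alternative run (267 to 355 rose, 93 to 164 fell). At a false discovery rate of 0.01, 102 hosts fell with dex in siBCOR cells, 54 rose and 42 fell after depletion in vehicle, 150 rose and 136 fell after depletion in dex, and 1 had a smaller response in siBCOR cells. The 102 were 8.91% of hosts, against 7.16% of all genes. After depletion in vehicle the 54 and 42 were 4.72% and 3.67% of hosts, against 3.49% and 4.13% of all genes. With no filter 89 hosts rose after depletion in vehicle (6.87%, against 3.64% of all genes), and the median host stood at 4.97, 4.53, 4.67 and 4.39 RPKM in siBCOR dex, siBCOR vehicle, siNON dex and siNON vehicle. Upper-quartile scaling gave 6.13 RPKM in siBCOR dex. The interaction called 1 host downward with DESeq2 size factors, upper-quartile scaling, no filter, the replicate block or members over 2500 bp from every TSS, 2 with single-host peaks only, and 5 upward and 9 downward by DESeq2's Wald test.

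Leaving out 1 library at a time gave 300 to 355 hosts up and 111 to 164 down with dex in siNON cells, 272 to 359 and 123 to 179 in siBCOR cells, 75 to 172 and 50 to 105 after depletion in vehicle, 187 to 358 and 155 to 278 after depletion in dex, and 0 to 99 and 1 to 121 for the interaction. Without both siNON dex replicate 4 and siNON vehicle replicate 3, chosen after seeing the data, 139 fell after depletion in vehicle and 340 in dex, and the interaction called 87 upward and 58 downward. The 139 were 12.1% of hosts, against 15.1% of all genes. Leaving out single libraries also moved the share of all genes, from 8.3% to 12.5% up with dex in siNON cells. Host counts in this section thus describe the settings, not hosts against other genes. The cause of these shifts was not tested.

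Replicate numbers did not pair the libraries: over 24 same-numbered pairs the deviations correlated at -0.526 to 0.502 (median -0.0071), 6 of them over 0.1. Libraries with different numbers also shared deviations. Their correlation reached 0.6538 for siNON vehicle replicate 3 with siNON dex replicate 4. It reached -0.6427 for siBCOR vehicle replicate 2 with siNON vehicle replicate 3. The main fit held no term for such shared deviations. With the replicate block 330 and 135 hosts rose and fell with dex in siNON cells, 314 and 165 in siBCOR cells, 128 and 66 after depletion in vehicle and 280 and 218 in dex. Values of named genes under the alternatives kept direction and call in 1828 cases, lost the call in 61, gained it in 18 and reversed in 1 (LINC01588 after depletion in dex, -0.0524 with its longest transcript). Shares of motifs in the peaks themselves were not run, for want of a genome of their build here.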
